A study of Mus musculus with 18 samples.

Results

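Protein folding and stress genes were followed in cultured mouse ovarian follicles, as a set of 36 genes in 3 classes: 14 heat shock genes of the cytosol and mitochondria, 16 genes of protein folding in the endoplasmic reticulum (ER), and 6 genes of the response to amino acid shortage. Members were chosen by symbol, with no measured value in the rule, out of 18193 genes that the array annotation named by a symbol of their own. A probe set of its own was found for 34 members (12 heat shock, 16 ER folding and 6 amino acid stress genes), and all 34 passed the filter on dim signals. Hsp90ab1 and Hsf1 had no probe set with 1 symbol in the annotation used and were not analysed here. Each gene was read from its brightest probe set, and every level below is the deposited signal, a linear brightness value with no unit.

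The heat shock response is run by the transcription factor HSF1, which binds heat shock elements when unfolded protein ties up cytosolic chaperones, and Hspa1a and Hspa1b are its classical inducible targets. In the ER, unfolded protein is sensed by IRE1, ATF6 and PERK. IRE1 splices the Xbp1 transcript, and cleaved ATF6 acts on ER stress response elements in the promoters of chaperone genes such as Hspa5. PERK and the amino acid sensor GCN2 phosphorylate eIF2alpha, which favours translation of ATF4, an activator of amino acid genes such as Asns. In the ovary, granulosa cells of growing follicles secrete large amounts of protein and the oocyte builds a glycoprotein coat, both of which pass through ER folding.

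The follicles were preantral to small antral follicles of C57BL/6Ntac mice aged 6 to 8 weeks. Each pool of follicles came from 7 mice and was divided over 3 cultures. One received vehicle and the others recombinant AMH at 50 and at 200 ng/mL. AMH, anti-Müllerian hormone, is the granulosa cell hormone that restrains follicle growth. All cultures, vehicle included, also received FSH at 80 IU/L and LH at 10 IU/L, and follicles were collected after 12 or 24 h. Each of the 6 groups held 3 arrays, numbered by pool, and the number of arrays limits the precision. Whole follicles were measured, so fewer cells of a type and less RNA per cell cannot be told apart.

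Promoters were read first, for the binding letters of these factors. RefSeq promoter windows (GRCm38.p6, 250 bases before to 50 after each transcript start) were found for 30 of the 36 members. Both strands were searched for a heat shock element (GAA, TTC and GAA, or TTC, GAA and TTC, with 2 bases between neighbours), the ER stress response element (ERSE, CCAAT and CCACG spaced by 9 bases), its variant ERSE-II (ATTGG and CCACG spaced by 1 base), the ATF4 element of amino acid genes (CARE, TGATGNAA) and the XBP1 element UPRE (TGACGTGG). ERSE letters were present in 7 of 14 ER folding members with a window (Calr, Canx, Creld2, Dnajc3, Hsp90b1, Hspa5 and Pdia6), against 0.137% of 27025 genes. ERSE-II was present in Dnajb11 and Herpud1, against 0.0444% of genes. Heat shock element letters were present in 3 of 10 heat shock members, Hspd1, Hspe1 and Hsph1, against 0.662% of genes. In Hsph1 they lay after the transcript start, as did ERSE-II in Dnajb11 and CARE in Trib3. CARE was present in 3 of 6 amino acid stress members (Asns, Chac1 and Trib3) and in Herpud1, against 4.51% of genes. UPRE was present in 0 of the 30 members, against 0.714% of genes. A match is a description of letters and not a measured binding site.

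The stretches below show the motifs in a choice of members with a match before the transcript start. They run 5′ to 3′ on the strand of the gene, with the matched letters in capitals.
Hspe1, heat shock elements overlapping in 1 run, chr1:55088029-55088106, plus strand: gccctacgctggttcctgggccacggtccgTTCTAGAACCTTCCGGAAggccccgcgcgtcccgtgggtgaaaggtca
Hspa5, ERSE, chr2:34771995-34772073, plus strand: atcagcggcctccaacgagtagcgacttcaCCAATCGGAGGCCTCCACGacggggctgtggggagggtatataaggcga
Hsp90b1, ERSE in both orientations, chr10:86705523-86705666, minus strand: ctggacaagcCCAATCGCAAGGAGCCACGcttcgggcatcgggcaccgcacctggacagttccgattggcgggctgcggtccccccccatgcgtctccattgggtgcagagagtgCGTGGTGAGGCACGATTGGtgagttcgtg
Pdia6, ERSE, chr12:17266461-17266539, plus strand: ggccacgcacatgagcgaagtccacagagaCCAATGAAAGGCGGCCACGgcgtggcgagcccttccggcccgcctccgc
Herpud1, CARE and then ERSE-II, chr8:94386297-94386407, plus strand: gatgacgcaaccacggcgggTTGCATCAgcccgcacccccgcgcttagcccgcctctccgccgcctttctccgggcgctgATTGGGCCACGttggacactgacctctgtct
Asns, CARE, chr6:7693210-7693262, minus strand: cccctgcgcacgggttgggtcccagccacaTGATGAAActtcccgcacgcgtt
Chac1, CARE, chr2:119351019-119351086, plus strand: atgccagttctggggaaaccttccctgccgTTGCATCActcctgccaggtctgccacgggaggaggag
Hspd1 and Hspe1, the partners of the mitochondrial chaperonin, start back to back on chromosome 1, and their windows hold the same heat shock elements read from opposite strands. In Herpud1 and Chac1 the CARE letters run on the opposite strand.

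Pool 3 of AMH 50 ng/mL at 12 h gave an aberrant array, which is kept out of the main comparisons and described here. It correlated with the rest at a median of 0.478, where pairs among the other 17 gave 0.813 to 0.984. Its hybridisation spikes averaged 28532, and those of the other 17 lay between 1441 and 3520. Of the 34 members, 13 lay above the range of the other 17 arrays there, 14 below it and 7 within it. Over all 22518 probe sets tested, 24.4% lay above, 48% below and 27.6% within. Hspa8, the constitutive cytosolic Hsp70, read 37639.8 on this array and at most 4768 on the other 17. Herpud1, an ER membrane protein of ER-associated degradation, read 4478 there and at most 275 elsewhere. Hspa1b read 35.9 there and at least 521 elsewhere, Xbp1 read 73.6 and at least 1061, and Creld2, an ER folding factor, read 39.0 and at least 607. Members of the same class thus lay at opposite ends on this array, and it entered no test. At 12 h, AMH 50 ng/mL therefore rests on pools 1 and 2. The AMH 200 ng/mL array of the same pool had the lowest median correlation of the other 17 (0.847) and the highest poly-A spike signal (4327, against at most 1264 on the other 16), and member differences named below that it moved by over 1.5 times are also given without it.

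**Figure D1:**
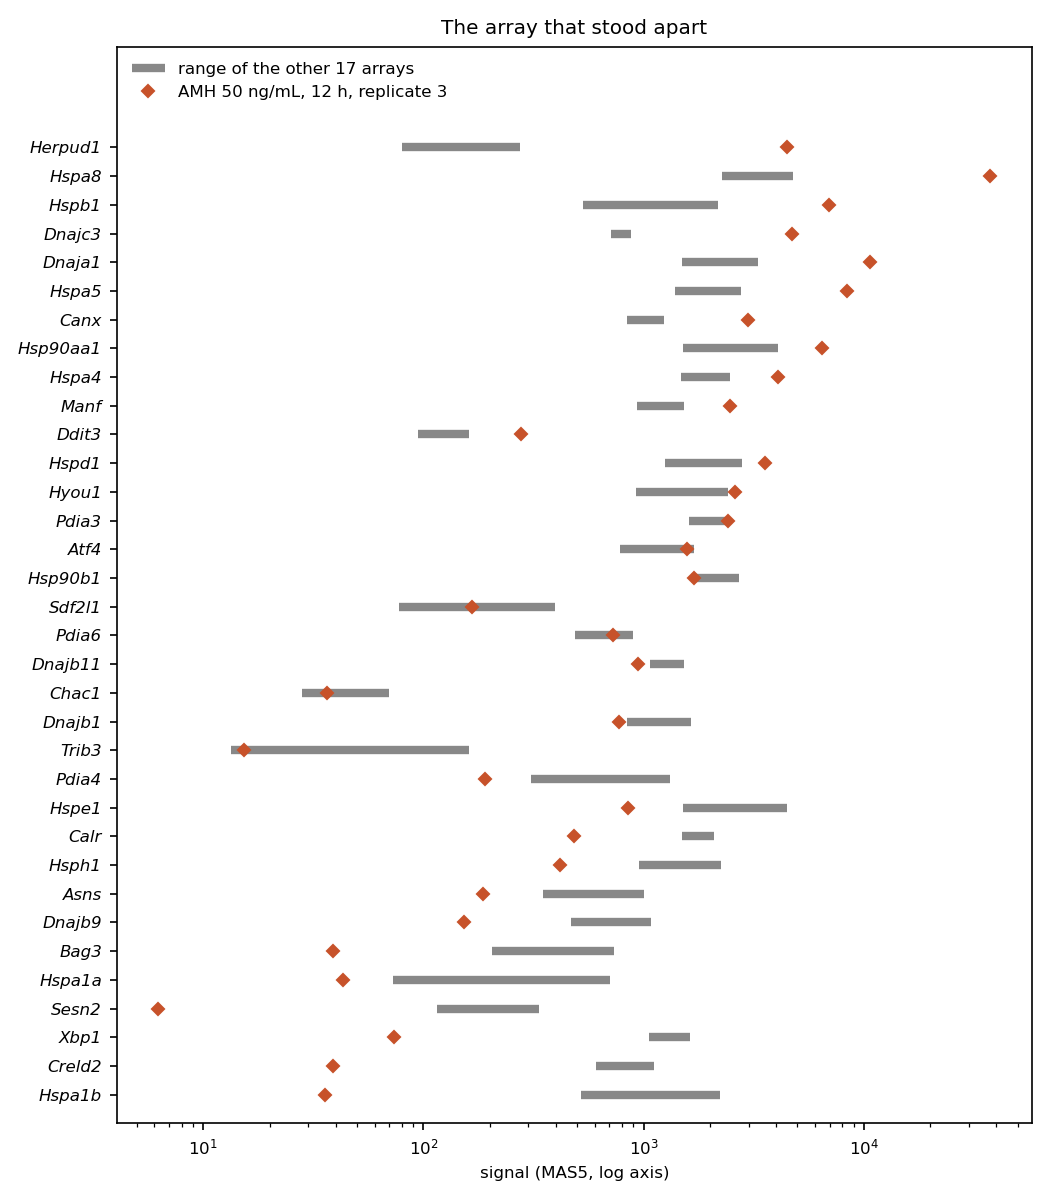
Signal (log axis) of the 34 measured members on the array of AMH 50 ng/mL, 12 h, replicate 3 (diamonds) beside the lowest to highest signal on the other 17 arrays (bars). Members are ordered by their log2 difference from vehicle of the same pool, and 27 of the 34 diamonds lie outside their bar.

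Over the other 17 arrays the members differed in how widely they varied. Dnajc3, an ER co-chaperone, varied least, with the highest signal 1.23 times the lowest, followed by Calr at 1.39 and Dnajb11 at 1.42. Hspa1a varied 9.69-fold and Hspa1b 4.26-fold, while constitutive Hspa8 varied 2.10-fold. In the ER class Sdf2l1 varied 5.10-fold and Pdia4 4.29-fold. Trib3, a pseudokinase induced by ATF4, varied 12.0-fold, from 13.4 to 161. Without the AMH 200 ng/mL 12 h array of pool 3 as well, over 16 arrays, Trib3 varied 4.33-fold, Pdia4 2.46-fold and Sdf2l1 2.35-fold, Hspa1a 7.10-fold and Hspa8 1.62-fold, while Hspa1b stayed at 4.26-fold. Hspa1a and Hspa1b encode near-identical proteins, so their probe sets may each read both transcripts. The probe sets of Hspa8, Calr, Trib3, Hspe1 and Hyou1 are of designs that can also read related transcripts.

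The first question was how the members differed between 12 and 24 h of culture. Differences are given as log2(signal + 16) at 24 h minus that at 12 h, with the SE of a limma fit, and p-values were adjusted by Benjamini-Hochberg over all 22518 probe sets. In vehicle, 0 of 34 members passed the adjusted threshold of 0.05, beside 1.3% of probe sets. At an unadjusted p under 0.05 there were 9 members, and 18.6% of probe sets. With AMH 200 ng/mL, 1 of 34 members passed, beside 3.91% of probe sets. That member was Asns, asparagine synthetase, which fell. By their brightest probe sets, all 12 heat shock members lay lower at 24 h, in vehicle (median log2 difference -0.21) and in AMH 200 ng/mL (median -0.60). The medians over all 11238 genes tested were -0.0034 and 0.065. Not every probe set was lower: dimmer ones of Hspa4 (0.48 and 0.11), Hspe1 (0.29) and Dnaja1 (0.03) were higher in vehicle. The other probe sets of Hspa1b, Hspa8, Hsp90aa1, Hsph1, Dnajb1 and Hspb1 were lower there, as was another of Dnaja1 (-0.02). The time comparisons of vehicle and AMH 200 ng/mL share no array but come from the same pools. In vehicle the groups did not overlap for 8 members that were lower at 24 h, beside 11.5% of probe sets, and 2 that were higher, beside 13.5%. The counts with AMH 200 ng/mL were 11 lower, beside 13.8%, and 3 higher, beside 21.2%.

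Across all 3 doses, the 9 arrays of 24 h and the 8 arrays of 12 h did not overlap for 6 members. Of these, Hspa1a, Hspa1b, Hsph1, Canx and Asns were lower at 24 h, beside 2.93% of probe sets lower without overlap, and Pdia4 was higher, beside 5.11% of probe sets higher without overlap. The arrays of a pool share their mice, so they are 3 pools at each time and not 9 and 8 separate samples. When the doses of each pool were averaged first, an alternative added after the data were seen, 6 of 34 members passed the limma test, beside 11.5% of probe sets. Hspa1a, Hspa1b, Hsph1, Hyou1 and Asns fell, and Pdia4 rose. Pool 3 of 12 h was here the mean of its vehicle and higher-dose arrays only, because its lower-dose array entered no test. That higher-dose array is the one with the low correlation described above. How far the averaged values rest on it was not tested.

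Hspa1b, the inducible cytosolic Hsp70, read 1267, 2220.0 and 1413 in vehicle at 12 h and 770.4, 760.4 and 1181 at 24 h. Its AMH 200 ng/mL arrays read 1554, 1582 and 2125 at 12 h and 592, 573 and 1161 at 24 h. Every 24 h array lay below every 12 h array in both treatments. The log2 difference was -0.83 (SE 0.25, limma adjusted p = 0.132) in vehicle and -1.22 (SE 0.28, adjusted p = 0.0531) in AMH 200 ng/mL. The other 2 probe sets of Hspa1b gave -1.13 and -0.99 in vehicle.

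Hspa1a, its near-identical neighbour, read 185, 333 and 517 in vehicle at 12 h and 155, 153 and 110.0 at 24 h, again without overlap. Its log2 difference was -1.12 (SE 0.34, limma adjusted p = 0.134) in vehicle and -1.40 (SE 0.44, adjusted p = 0.107) in AMH 200 ng/mL, where it was -0.87 (adjusted p = 0.0422) without the 12 h array of replicate 3. With the doses of each pool averaged, Hspa1a fell by 1.40 (SE 0.34, adjusted p = 0.0354) and Hspa1b by 1.07 (SE 0.19, adjusted p = 0.0137) on the log2 scale. These averages include the AMH 200 ng/mL 12 h array of replicate 3.

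Hsph1, the Hsp110 that recharges Hsp70 with ATP, read 1275, 1605 and 1768 in vehicle at 12 h and 1002, 1103 and 1133 at 24 h. Its groups did not overlap either, with a log2 difference of -0.50 (SE 0.15, limma adjusted p = 0.136) in vehicle and -0.71 (SE 0.19, adjusted p = 0.0768) in AMH 200 ng/mL. Hsp90aa1, the inducible cytosolic Hsp90, read 1996, 2611 and 2421 at 12 h and 1517, 2076 and 1950.1 at 24 h in vehicle, so that its groups overlapped, with a difference of -0.34 (SE 0.16, limma adjusted p = 0.304), and -0.21 without the 24 h array of replicate 1. The AMH 200 ng/mL groups were apart, at 2284, 2576 and 4062 against 1766, 1844 and 1953, with a difference of -0.63 (SE 0.22, limma adjusted p = 0.137), and -0.39 (adjusted p = 0.0518) without the 12 h array of replicate 3.

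Hspa8 was flatter in vehicle, at 2806, 3199 and 3193 against 2704, 3043 and 2509 (log2 difference -0.16, SE 0.12). Its other bright probe sets gave -0.14 and -0.12, and its dimmest gave -0.89. The remaining heat shock members in vehicle lay between -0.26 (Hspb1, a small heat shock protein) and -0.03 (Hspe1, the mitochondrial co-chaperonin). Under quantile normalization 11 of 12 heat shock members stayed lower in vehicle and 10 of 12 in AMH 200 ng/mL, where the median became -0.25. Without the AMH 200 ng/mL 12 h array of replicate 3 the median in that treatment was likewise -0.25, and 7 of 34 members passed, beside 13.3% of probe sets: Hspa1a, Hspa1b, Hsph1, Hyou1 and Asns fell, and Pdia4 and Sdf2l1 rose.

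**Figure D2:**
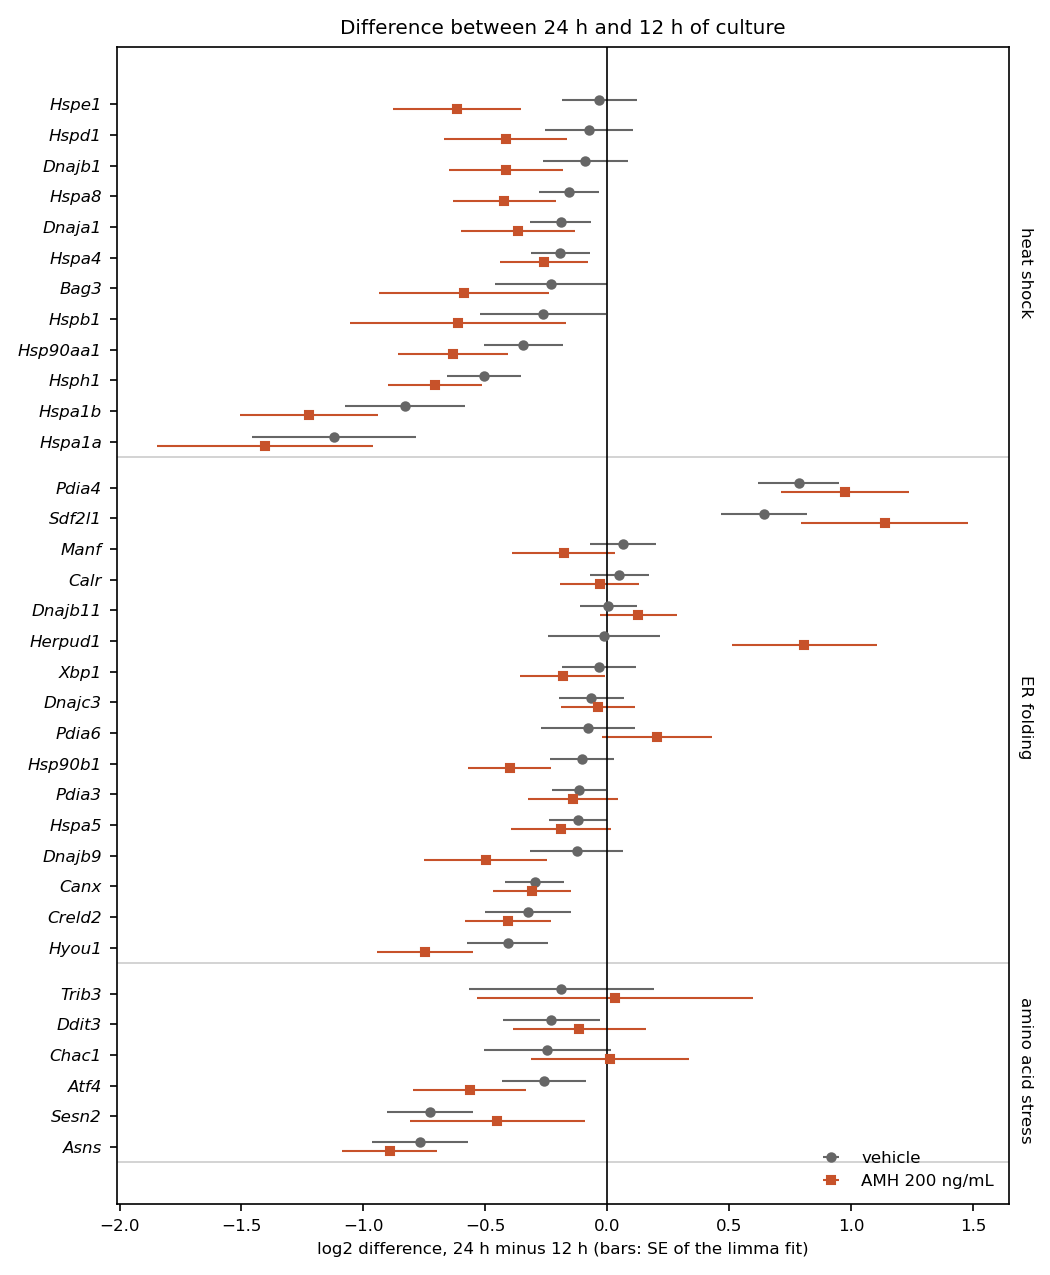
Log2 difference between 24 and 12 h for the 34 measured members by class, in vehicle (grey circles) and AMH 200 ng/mL (orange squares), with the SE of the limma fit (3 arrays against 3). All 12 heat shock members lie left of 0 in both treatments, and Pdia4 and Sdf2l1 lie right of it at 0.79 and 0.64 in vehicle.

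The ER members did not move as a block. By their brightest probe sets, 11 of 16 members were lower and 5 higher at 24 h in vehicle (median -0.07). The same split was found in AMH 200 ng/mL (median -0.16). In vehicle, other probe sets of Pdia3 (0.36), Herpud1 (0.41), Dnajc3 (0.07 to 0.48), Xbp1 (0.02 to 0.05) and Hspa5 (0.006) were higher. Those of Calr stayed higher, those of Hsp90b1 and Hyou1 stayed lower, and those of Canx went both ways. The split in vehicle thus depends on the probe set. In AMH 200 ng/mL the median was turned by quantile normalization (0.09) and by averaging all tested probe sets of a gene (0.06), and lay at 0.002 without the 12 h array of replicate 3.

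Pdia4, a disulfide isomerase of the ER lumen, read 634, 649 and 539.6 in vehicle at 12 h and 1227, 1097 and 873 at 24 h. The AMH 200 ng/mL arrays gave 601, 617 and 309 at 12 h and 989.8, 936 and 986 at 24 h. Every 24 h array lay above every 12 h array, and the AMH 50 ng/mL arrays were on the same sides (731 and 668 against 1325, 1158 and 957). The log2 difference was 0.79 (SE 0.17, limma adjusted p = 0.0621) in vehicle and 0.97 (SE 0.26, adjusted p = 0.0756) in AMH 200 ng/mL. With the replicate number as a block in vehicle, Pdia4 rose (limma adjusted p = 0.0399) and Asns fell (adjusted p = 0.0479). They were the 2 of 34 members that passed there, beside 2.85% of probe sets. Labels do not tie the numbers across times, so this block has no basis in the design and is an alternative only.

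Sdf2l1, a partner of the ER Hsp70 BiP, read 241, 259 and 186 in vehicle at 12 h and 342, 371 and 376 at 24 h. Its groups did not overlap, and the log2 difference was 0.64 (SE 0.18, limma adjusted p = 0.111). In AMH 200 ng/mL the difference was 1.14 (SE 0.34, adjusted p = 0.0972), and 0.76 (adjusted p = 0.0427) without the 12 h array of replicate 3, which read 77.6.

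Hyou1, the ER counterpart of Hsph1 and a nucleotide exchange factor of BiP, went the other way. It read 1482, 2132 and 1477 in vehicle at 12 h and 1298, 1296 and 1177 at 24 h, without overlap. The log2 difference was -0.41 (SE 0.17, limma adjusted p = 0.239) in vehicle, and -0.23 without the 12 h array of replicate 2, which read 2132. It was -0.75 (SE 0.20, adjusted p = 0.071) in AMH 200 ng/mL. Canx, the membrane-bound lectin chaperone calnexin, read 1103, 1115 and 1079 at 12 h and 945, 888 and 842 at 24 h in vehicle. These groups were close but did not overlap, with a difference of -0.30 (SE 0.12, limma adjusted p = 0.241) in vehicle and -0.31 (SE 0.16) in AMH 200 ng/mL. The dimmest of the 3 Canx probe sets gave 0.39 in vehicle, so the probe sets disagreed.

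Hspa5, which encodes BiP, the master chaperone of the ER, read 1583, 1738 and 1840.2 in vehicle at 12 h and 1545, 1533 and 1657 at 24 h, with overlapping groups and a log2 difference of -0.12 (SE 0.12). Hsp90b1, the ER Hsp90, differed by -0.10 (SE 0.13) and Xbp1, the IRE1 target, by -0.03 (SE 0.15) in vehicle. The arrays do not tell spliced from unspliced Xbp1 in these values. Herpud1 differed by -0.01 (SE 0.23) in vehicle and 0.81 (SE 0.30, limma adjusted p = 0.146) in AMH 200 ng/mL, where it read 142, 168 and 79.8 at 12 h and 226, 204 and 263 at 24 h. Without the 12 h array of replicate 3 that difference was 0.53 (adjusted p = 0.11). A second, dimmer Herpud1 probe set gave 0.41 in vehicle and 0.64 in AMH 200 ng/mL, so the contrast between treatments depends on the probe set. Of the 7 members with an ERSE, Calr was higher by 0.05 in vehicle, and the other 6 lay between -0.32 and -0.06. These values are of the brightest probe sets. Other probe sets of Dnajc3 (0.07 to 0.48) and Hspa5 (0.006) were higher, that of Hsp90b1 was lower (-0.05), and those of Canx went both ways.

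In the amino acid class, all 6 members were lower at 24 h in vehicle (median -0.25). With AMH 200 ng/mL 4 were lower and 2 higher (median -0.28, and -0.53 without the 12 h array of replicate 3). Asns read 608, 769 and 832 in vehicle at 12 h and 349, 407 and 530.2 at 24 h. Its AMH 200 ng/mL values were 1005, 709 and 683 at 12 h and 438, 407 and 406 at 24 h. No 24 h array of any dose, at most 530.2, reached the lowest 12 h array at 608. The log2 difference was -0.77 (SE 0.20, limma adjusted p = 0.0957) in vehicle and -0.89 (SE 0.19, adjusted p = 0.0456) in AMH 200 ng/mL, and a second probe set gave -0.77 and -1.04. The call in AMH 200 ng/mL was lost when any 24 h array was left out (adjusted p of 0.166 to 0.201), without the 12 h array of replicate 1 (0.0867) and with the replicate block (0.0555). With the doses of each pool averaged, Asns fell by 0.82 (SE 0.12, adjusted p = 0.00666).

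Sesn2, a stress-induced inhibitor of mTORC1, read 235, 218 and 265 in vehicle at 12 h and 148, 129 and 136 at 24 h. These groups were well apart, with a log2 difference of -0.73 (SE 0.18, limma adjusted p = 0.0837). A second, dimmer Sesn2 probe set gave -0.28 in vehicle. With AMH 200 ng/mL the 12 h arrays scattered, at 333, 171 and 116, and overlapped the 24 h arrays at 134, 144 and 124. Atf4, the activator of the class, read 1092, 974 and 1329.8 at 12 h and 783, 969 and 1074 at 24 h in vehicle, a difference of -0.26 (SE 0.17) with overlapping groups, and -0.14 without replicate 1 of 24 h or replicate 3 of 12 h. Ddit3, the proapoptotic factor CHOP, read 161, 126 and 138 at 12 h and 111, 106 and 138 at 24 h (log2 difference -0.23, SE 0.20). Chac1 and Trib3 were dim, with medians of 41.9 and 74.6 over 17 arrays, and differed by -0.25 (SE 0.26) and -0.19 (SE 0.38).

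Genes of the same pathways outside the 36 were counted for comparison. Of 29 tested heat shock co-chaperones and HSF1 targets, a list that also holds other Hsp70s, small heat shock proteins and chaperonin subunits, 24 were lower at 24 h in vehicle (median -0.28) and 25 in AMH 200 ng/mL (median -0.40), where the small heat shock proteins Hspb8 (-1.003, SE 0.20, limma adjusted p = 0.0346) and Cryab (-1.18, SE 0.24, adjusted p = 0.0359) fell. Of 17 tested amino acid response genes, 15 were lower in vehicle (median -0.28) and 14 in AMH 200 ng/mL (median -0.35). In AMH 200 ng/mL the serine synthesis enzymes Phgdh (-1.95, SE 0.21, limma adjusted p = 0.0128) and Psat1 (-1.51, SE 0.20, adjusted p = 0.0132) fell, as did the cystine transporter Slc7a11 (-2.21, SE 0.31, adjusted p = 0.015). In vehicle these 3 genes differed by -1.19, -0.91 and -1.17, with adjusted p of 0.097, 0.0595 and 0.0653. Of 27 tested sensors and ER degradation genes, 13 were higher and 14 lower in vehicle. Derl3, of ER-associated degradation, rose in AMH 200 ng/mL (2.90, SE 0.58, adjusted p = 0.0352).

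Markers of the cells in a follicle moved between the same times. The summed signal of 8 granulosa markers was 4538 to 7856 in vehicle at 12 h and 9868 to 10308 at 24 h, and 7 of the 8 were higher (median log2 difference 0.89 in vehicle), 2 of them past the threshold. The same counts were found with AMH 200 ng/mL (median 1.28). All 6 endothelial markers were lower at 24 h in vehicle (median -0.83), with sums of 1042 to 3844 at 12 h and 600.0 to 1433 at 24 h. With AMH 200 ng/mL 3 endothelial markers were higher and 3 lower (median -0.0063). Oocyte marker sums ranged from 528 to 8870 between vehicle pools at 12 h and from 1407 to 6567 at 24 h. Leukocyte, surface epithelium, and theca and interstitial marker sums were 1266 to 1982, 744 to 2330 and 3190 to 7740 in vehicle at 12 h, and 1035 to 2434, 2128 to 4489 and 7496 to 8209 at 24 h. Of 8 surface epithelium markers 7 were higher at 24 h in vehicle (median 0.74), and 2 with AMH 200 ng/mL (median -0.35). Of 8 leukocyte markers 6 were higher in vehicle (median 0.34), and 3 with AMH 200 ng/mL (median -0.44). In vehicle 1 leukocyte marker fell and 1 surface epithelium marker rose. Cyp19a1, Lhcgr and Insl3 were not measured by a probe set of their own. The part of these cell types in the stress gene differences was not tested.

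**Figure D3:**
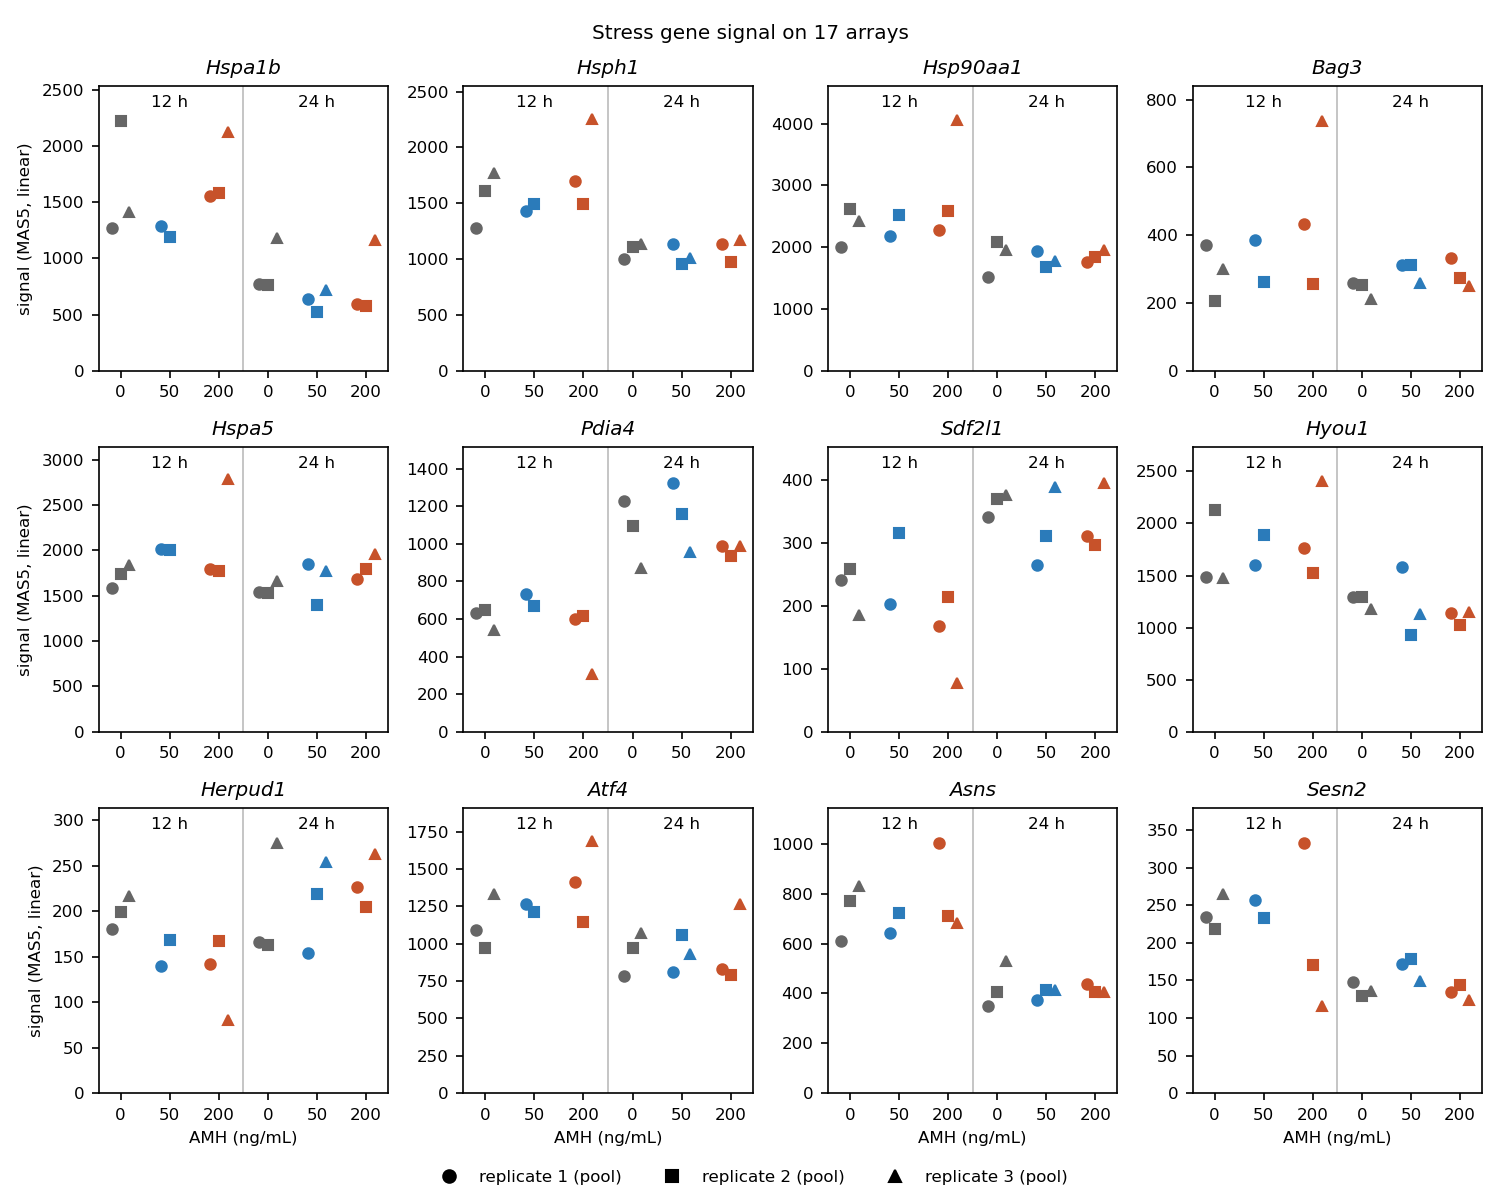
Signal (linear, from 0) of 12 members on the 17 arrays, by AMH dose (0 is vehicle) at 12 h and 24 h, with a point per array and a shape per pool. The 12 and 24 h arrays are apart for Hspa1b, Hsph1, Pdia4 and Asns at every dose, while within a time the doses overlap for most members.

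The second question was whether AMH changed these genes. In each comparison of doses, within pools, 0 of 22518 probe sets (0%) and 0 of 34 members passed the adjusted threshold in limma. The AMH 50 and 200 ng/mL comparisons at a time share their vehicle arrays, so their values stand side by side and are not separate evidence. At an unadjusted p under 0.05, 1 member differed with AMH 50 ng/mL at 24 h (2.7% of probe sets), 0 with AMH 200 ng/mL at 24 h (1.66%), 2 with AMH 50 ng/mL at 12 h (5.71%) and 6 with AMH 200 ng/mL at 12 h (11.4%). Between the doses the count was 0 at 24 h (4.17%) and 2 at 12 h (5.65%).

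At 24 h the class medians stayed near 0, from -0.05 to -0.02 with AMH 50 ng/mL and from -0.04 to -0.01 with AMH 200 ng/mL, beside 0.003 and 0.0079 over all genes. Of the 34 members, 6 moved the same way in all 3 pools with AMH 50 ng/mL, beside 23% of probe sets, and 8 with AMH 200 ng/mL, beside 27.6%. Neither count, as a share of the 34, was above its background.

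Hspa1b at 24 h read 770.4, 760.4 and 1181 with vehicle, and 635, 521 and 715 with AMH 50 ng/mL. It was lower in each of the 3 pools, by -0.27, -0.53 and -0.71, with a log2 difference of -0.51 (SE 0.20, unadjusted p = 0.024, limma adjusted p = 1.00). With AMH 200 ng/mL it read 592, 573 and 1161, and the pools differed by -0.37, -0.40 and -0.02 (fitted -0.26, SE 0.20). Pool 3 was the highest pool at every dose. Hspa1a was also lower in all 3 pools with AMH 50 ng/mL (-0.51, SE 0.24, and -0.30 without pool 2), at 102, 72.8 and 106 against 155, 153 and 110.0.

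Bag3, a co-chaperone of Hsp70 that feeds clients to autophagy, was the heat shock member with the steadiest difference the other way. At 24 h it read 259, 254 and 210.3 with vehicle, 312, 313 and 259 with AMH 50 ng/mL and 334, 274 and 250.2 with AMH 200 ng/mL. Each pool was higher than its vehicle culture. The lowest AMH 50 ng/mL array and the highest vehicle array both read 259, and the AMH 200 ng/mL arrays overlapped those of vehicle. The log2 difference was 0.27 (SE 0.18) with AMH 50 ng/mL and 0.23 (SE 0.18) with AMH 200 ng/mL. At 12 h it read 372, 206 and 299 with vehicle, 385 and 263 with AMH 50 ng/mL and 433, 255 and 738 with AMH 200 ng/mL. The difference with AMH 200 ng/mL at 12 h was 0.59 (SE 0.18, unadjusted p = 0.00668, adjusted p = 0.432), and 0.25 without replicate 3.

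With AMH 200 ng/mL averaged over both times, 2 of 34 members, Bag3 and Hspa5, were higher in all 6 pools, beside 0.853% of probe sets, and 0 were lower in all 6, beside 1.4% (2.26% in either direction). At an unadjusted p under 0.05 there were 3 members, Bag3, Hspa5 and Sdf2l1, and 3.41% of probe sets. Bag3 differed by 0.41 (SE 0.13, unadjusted p = 0.0074, limma adjusted p = 0.95) and by 0.24 without replicate 3 of 12 h. Hspa5 read 1689, 1796 and 1963 at 24 h against 1545, 1533 and 1657 with vehicle, so that its groups did not overlap there. At 12 h it read 1799.8, 1772 and 2782 against 1583, 1738 and 1840.2, with overlap. Its difference over both times was 0.23 (SE 0.10, unadjusted p = 0.0318, adjusted p = 0.95), and 0.15 without replicate 3 of 12 h. A second Hspa5 probe set of similar brightness gave smaller differences. They were 0.08 over both times, 0.02 at 24 h and 0.14 at 12 h, so the size depends on the probe set.

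Xbp1 was lower in all 3 pools with AMH 200 ng/mL at 24 h. It read 1355, 1389 and 1242 with vehicle, 1477, 1257 and 1311 with AMH 50 ng/mL and 1181, 1061 and 1203 with AMH 200 ng/mL. The AMH 200 ng/mL arrays lay below all others of 24 h, with a log2 difference of -0.21 (SE 0.12, unadjusted p = 0.104, and -0.12 without pool 2) from vehicle and -0.23 (SE 0.12) from AMH 50 ng/mL. Hyou1 (-0.18, SE 0.20) and Dnajb1, the Hsp40 that delivers clients to Hsp70 (-0.14, SE 0.16), were also lower in each pool with AMH 200 ng/mL. Pdia6, a disulfide isomerase, was higher in each pool with both doses (0.09, SE 0.14, and 0.15, SE 0.14). Sesn2 read 148, 129 and 136 with vehicle, 172, 179 and 149 with AMH 50 ng/mL and 134, 144 and 124 with AMH 200 ng/mL. It was thus highest with AMH 50 ng/mL in every pool, with a difference of 0.25 (SE 0.24, and 0.16 without pool 2) from vehicle and -0.28 (SE 0.24) between the doses. A second, dimmer Sesn2 probe set gave 0.03 and -0.43. With AMH 200 ng/mL against vehicle it gave -0.40, where the first gave -0.04. Ddit3 at 24 h read 111, 106 and 138 with vehicle, 116, 114 and 116 with AMH 50 ng/mL and 109.9, 99.5 and 133 with AMH 200 ng/mL, of which only 99.5 lay outside the range of vehicle.

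At 12 h, the brightest probe sets of all 12 heat shock members were higher with AMH 200 ng/mL in the fitted values. Their median was 0.21, against -0.07 over all genes. Dimmer probe sets of Dnajb1 (-0.39), Hspa1b (-0.08), Dnaja1 (-0.07), Hspa4 (-0.01) and Hspa8 (-0.004) were lower, and the remaining dimmer ones tested were higher. In all 3 pools, 6 of 34 members were higher, beside 8.77% of probe sets, and 3 lower, beside 14.4%. The pools did not share the shift of the heat shock class: 12 of 12 were higher in pool 1 (median 0.24), 3 of 12 in pool 2 (median -0.11) and 12 of 12 in pool 3 (median 0.58). Under quantile normalization 8 of 12 were higher (median 0.05), and without replicate 3 the median was 0.02. Hspd1, the mitochondrial Hsp60, read 1403, 1258 and 1992 with vehicle and 1844, 1349 and 2802 with AMH 200 ng/mL. It was higher in each of the 3 pools (0.33, SE 0.14, unadjusted p = 0.038, limma adjusted p = 0.432), as was Hspe1 (0.46, SE 0.20, and 0.23 without replicate 3), at 2454, 2164 and 4461 against 1805, 2139 and 2360.3. In both genes the groups overlapped across pools, and the pool 2 gap was the smallest.

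The ER members split at 12 h. Sdf2l1 read 241, 259 and 186 with vehicle and 168, 214 and 77.6 with AMH 200 ng/mL, lower in each pool (-0.62, SE 0.18, unadjusted p = 0.00395, limma adjusted p = 0.432). Herpud1 read 179.9, 199 and 216 with vehicle and 142, 168 and 79.8 with AMH 200 ng/mL, also lower in each pool and without overlap (-0.61, SE 0.21, unadjusted p = 0.0135). Pdia4 was lower in each pool by -0.08, -0.07 and -0.77. Without replicate 3 these 3 differences were -0.37, -0.27 and -0.07. With all 3 pools, a second Herpud1 probe set gave -0.30. Hspa5 was higher in each pool (0.27, SE 0.14, and 0.11 without replicate 3), and Atf4, of the amino acid class, was higher in each pool at 1416, 1145 and 1687 against 1092, 974 and 1329.8 (0.31, SE 0.14, unadjusted p = 0.048, adjusted p = 0.437). Asns was not steady, with pool differences of 0.71, -0.12 and -0.28.

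**Figure D4:**
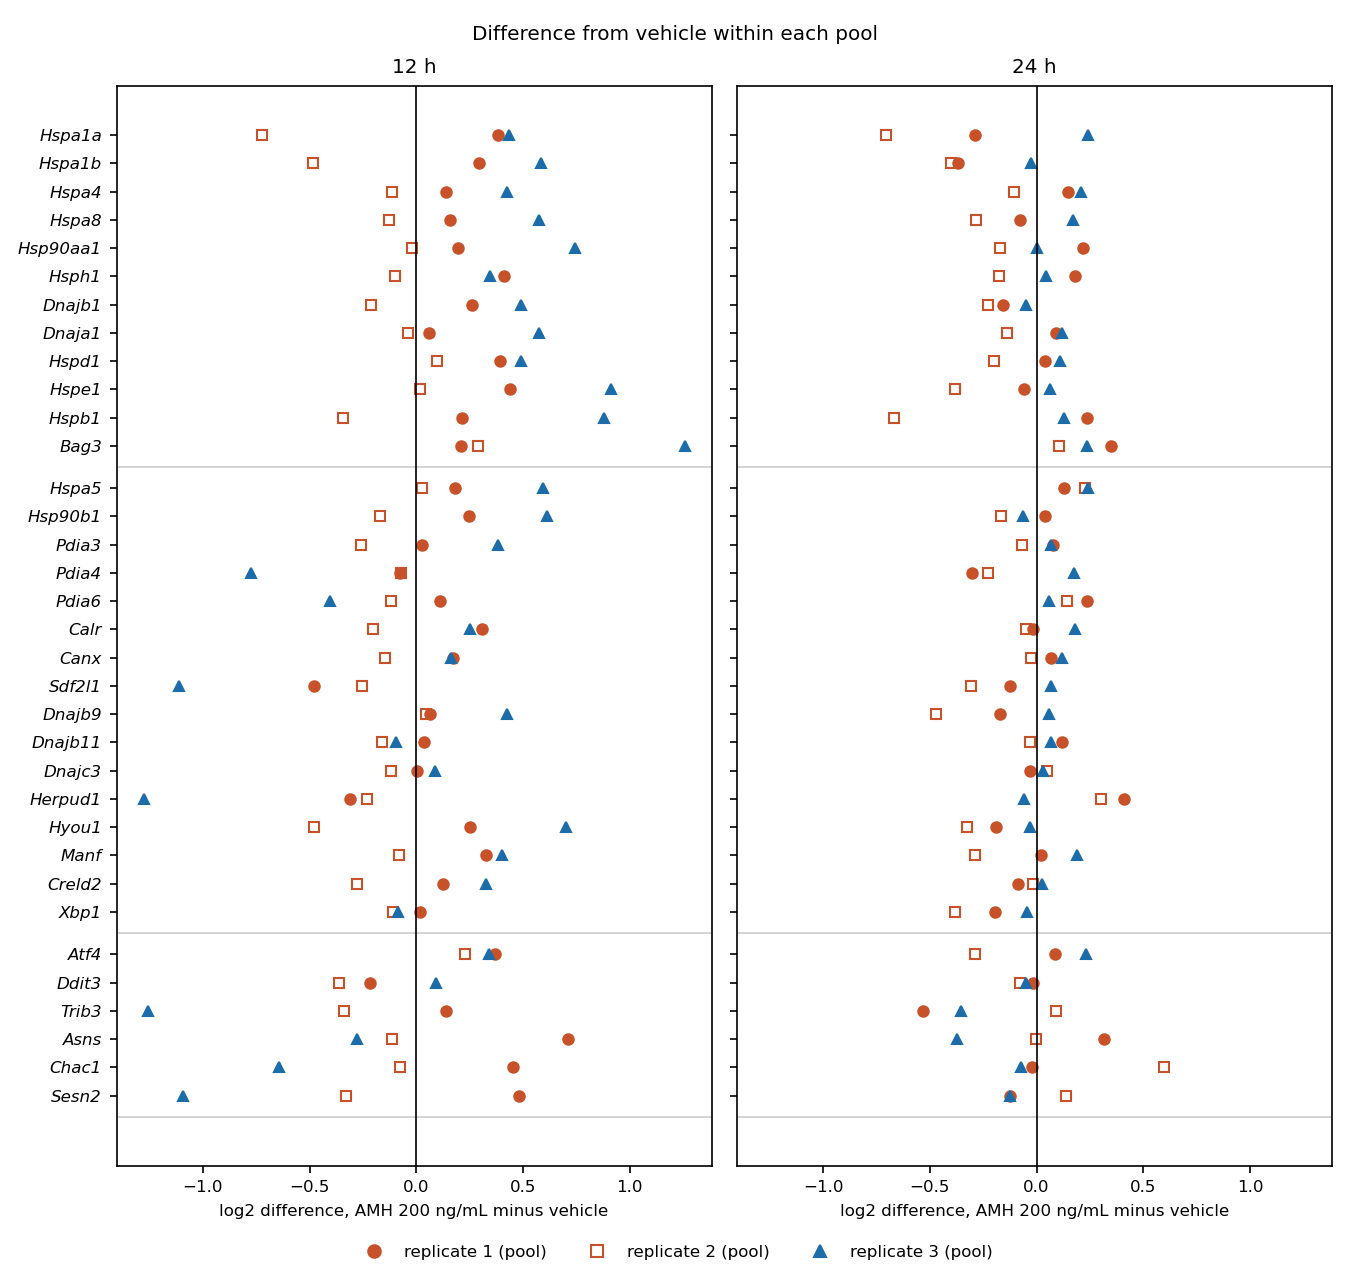
Log2 difference from vehicle of the same pool with AMH 200 ng/mL, for the 34 measured members at 12 h (left) and 24 h (right), with a symbol per pool. At 12 h pool 3 (blue triangles) lies farthest from 0 for many members, and the heat shock medians of pools 1, 2 and 3 are 0.24, -0.11 and 0.58.

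With AMH 50 ng/mL at 12 h, the 2 usable pools are given as they stand, because the fitted values also draw on the AMH 200 ng/mL array of pool 3. Manf, a secreted ER stress factor, read 1263 and 1314 against 1045 and 984 with vehicle, pool differences of 0.27 and 0.41. Hspa5 read 2013 and 2001 against 1583 and 1738, differences of 0.34 and 0.20. Herpud1 read 139 and 169 against 179.9 and 199, differences of -0.33 and -0.22. Dnajb9, an ER Hsp40 that represses IRE1, was higher in both pools (0.09 and 0.43), as were Hspd1 (0.07 and 0.35), Hspe1 (0.08 and 0.35), Dnajb1 (0.30 and 0.11), Atf4 (0.21 and 0.31) and Sesn2 (0.12 and 0.09). In all, 14 of 34 members were higher in both pools, beside 26.1% of probe sets, and 2 lower, beside 28.6% (54.7% in either direction). With each member's differences averaged over these pools, the class medians were 0.06 for heat shock, 0.06 for ER folding and -0.06 for amino acid stress members. Within pools 1 and 2 the medians were 0.07 and 0.003 for heat shock, 0.13 and 0.04 for ER folding, and 0.10 and 0.06 for amino acid stress. Between AMH 200 and 50 ng/mL at 12 h, Hspa1b was higher in both pools (0.27 and 0.40), and Pdia6, Sdf2l1, Pdia4 and Dnajb11, an ER Hsp40, were lower in both. In total 3 of 34 members were higher in both pools, beside 24.7% of probe sets, and 8 lower, beside 23.6%.

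The AMH 200 ng/mL effect at 24 h minus that at 12 h passed for 0 of 34 members (0% of probe sets). Its largest size among the members was in Herpud1 (0.82, limma adjusted p = 0.627), and 0.49 (adjusted p = 0.966) without the 12 h array of replicate 3. A second, dimmer probe set of Herpud1 gave 0.24 on all arrays of this comparison. No member moved 1 way in every pool at 24 h and the other way in every pool at 12 h, beside 4.17% of probe sets.

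Of the genes of these pathways outside the 36, none of the 29, 27 and 17 tested passed in any dose comparison. Cell type markers differed between doses in places. All 9 tested oocyte markers were lower with AMH 50 ng/mL at 24 h (median -1.005) and at 12 h (median -0.86), where sums at 24 h were 918 to 3912 against 1407 to 6567 with vehicle. All 8 leukocyte and all 8 surface epithelium markers were lower at 24 h with AMH 50 ng/mL (medians -0.79 and -0.76) and AMH 200 ng/mL (medians -0.95 and -0.72). All 8 surface epithelium markers were higher at 12 h with AMH 50 ng/mL (median 0.49) and AMH 200 ng/mL (median 0.60), the latter with a sum of 7783 on the array of replicate 3 against 1098 and 1408 on the others. All 6 endothelial markers were lower at 12 h with AMH 200 ng/mL (median -0.55). No marker passed the adjusted threshold in a dose comparison, and their part in the stress gene values was not tested.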

How the data were processed

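RNA (5 ng per culture) was amplified and hybridised to 18 Affymetrix Mouse Genome 430 2.0 arrays. The deposited intensity of each probe set was computed by the authors with MAS5, per the submitters' processing notes, and its 2% trimmed mean was 150 on every array. Other scaling is not given in the sources used here. Signals were used as deposited, as log2(signal + 16). Control probe sets (64 of 45101) were dropped, and the 22518 above the 50th percentile of mean log2 signal were tested.

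Doses were compared on 17 arrays with the pool as a block, and times on the 6 arrays of a treatment without one, with limma 3.58.1 in R 4.3.3 (two-sided, intensity trend, Benjamini-Hochberg threshold 0.05). The method was tested on simulated data. Replicate numbers mark shared pools within a time. Across times, labels do not tie the numbers. Same-numbered vehicle arrays gave correlations of 0.207 to 0.318 between their deviations, against -0.209 to -0.028 for other numbers. Deviations were taken from the mean of each group, so positive same-number values push the others to be negative. The contrast therefore cannot decide whether the numbers pair, and it comes from the arrays that the blocked fit uses. The blocked values are printed as an alternative only. Same-numbered AMH 200 ng/mL arrays gave 0.006 to 0.123, which does not pair them. The 12 h AMH descriptions give 24 h, and titles and source, used here, give 12 h.

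Array values are printed for members past the threshold, for up to 4 per class and comparison with pools of 1 sign or groups without overlap, and for fixed anchor genes. The members, lists and the array left out were chosen with earlier results of these data known. Alternatives changed the block, arrays, pseudocount, normalization, filter and summary of a gene's probe sets, and dropped pools or arrays in turn.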

Additional observations from a re-analysis of the deposited data

How the results depend on the processing

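In vehicle, 24 against 12 h, 292 probe sets and 0 members passed. The replicate block gave 642 probe sets and 2 members. Averaging the doses of each pool (added after the data were seen), which is not vehicle alone, gave 2593 and 6. In vehicle alone, a pseudocount of 1 gave 156 probe sets and no filter 60, each with 0 members. Leaving out an array gave 0 to 555 probe sets and 0 to 1 member, with class medians of -0.25 to -0.15 (heat shock), -0.08 to -0.03 (ER folding) and -0.48 to -0.18 (amino acid stress). The 1 member was Hspa1a, without the vehicle 12 h array of replicate 1. In AMH 200 ng/mL, 881 probe sets and 1 member passed. A pseudocount of 1 gave 550 and 0, no filter 401 and 0, and quantile normalization 1507 and 5 (Hspa1b, Hsph1, Hyou1 and Asns lower, Pdia4 higher), with medians of -0.25 for heat shock and 0.092 for ER folding. A pseudocount of 50 gave 2 members, and the mean of tested probe sets an ER median of 0.062. Leaving out an array gave 0 to 2993 probe sets and 0 to 7 members, with medians of -0.77 to -0.25, -0.22 to 0.002 and -0.53 to -0.06. The replicate block gave 798 probe sets and 1 member there (Hspa1b, limma adjusted p = 0.0243, while Asns was at 0.0555).

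Between doses 0 members passed under any alternative run. Leaving out a pool gave at most 226 probe sets (AMH 200 ng/mL at 12 h, without replicate 2), 17 (200 against 50 ng/mL at 12 h), 4 (AMH 50 ng/mL at 12 h) and 2 (mean of both times), each against a lowest count of 0, and the 24 h arrays alone gave 1 for AMH 50 ng/mL at 24 h. For 200 against 50 ng/mL, leaving out a pool gave heat shock medians of -0.013 to 0.13 at 24 h, and quantile normalization gave an ER median of 0.060 there. At 12 h the heat shock median without a block was 0.32. For AMH 50 ng/mL at 12 h the amino acid median was -0.36 with all 18 arrays, -0.031 without a block and -0.071 under quantile normalization. The heat shock median was -0.019 without a block, 0.035 under quantile normalization and 0.11 with the mean of probe sets, and the ER median -0.0033 and 0.16 under the last 2. Leaving out a pool gave 0.060 to 0.17 (heat shock) and -0.22 to -0.057 (amino acid stress).

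With all 18 arrays, some differences turned at 12 h: Bag3 to -0.71, Dnajb1 to -0.0549, Dnajb9 to -0.58, Herpud1 to 1.24 and Hspe1 to -0.34 for AMH 50 ng/mL, and Dnajb1 to 0.23, Hsp90aa1 to -0.19 and Pdia4 to 0.090 for 200 against 50 ng/mL. Dnajb1 also turned without replicate 2 (0.015). Sesn2 with AMH 50 ng/mL at 12 h, fitted at -0.09, turned to 0.037 without a block, 0.035 with the mean of probe sets and 0.0022 under quantile normalization, and lay between -0.27 and 0.11 when a pool was left out. Over the named genes and alternatives, 667 values kept direction and side of the threshold, 22 passed it in addition and 7 no longer passed, the last all for Asns in AMH 200 ng/mL over time. The arrays hold 3 pools per group, and dim members such as Chac1 and Trib3 lie near the pseudocount and filter, so their differences are the least certain.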
